A study of Mus musculus with 4 samples.

Results

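Receptor tyrosine kinases are cell surface receptors whose inner kinase domain is switched on when a ligand brings receptor chains together. KIT, the receptor for stem cell factor, and FLT3, the receptor for FLT3 ligand, are growth factor receptors of hematopoietic stem and progenitor cells, and CSF1R drives the macrophage lineage. TEK (also called TIE2) binds the angiopoietins and, with its partner TIE1, is known from endothelial cells and hematopoietic stem cells, while IGF1R and INSR bind insulin-like growth factors and insulin. The transcripts of these 7 genes, Kit, Flt3, Csf1r, Tek, Tie1, Igf1r and Insr, were chosen by symbol from 31053 genes, and each symbol matched 1 gene identifier.

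Mouse bone marrow was profiled by droplet single-cell RNA sequencing in 4 libraries, 1 for each of KLS control, KLS STAT5 KO, MSC control and MSC STAT5 KO. All mice carried Vav1-Cre, a Cre recombinase driven by the Vav1 promoter, which is active in blood cells. STAT5 KO mice were Vav1-Cre/+ with STAT5ab flox/flox, and control mice were Vav1-Cre/+ with intact STAT5 genes. KLS cells are stem and progenitor cells that lack lineage markers and carry c-Kit and Sca-1, sorted from mice of 8 to 12 weeks, with 4 mice named in the series text. Because the antibody to c-Kit was part of that sort, a high level of Kit in KLS cells was selected and is not a result. MSC are stromal cells of mice of 6 to 8 weeks, depleted of CD45+ cells and then sorted for Sca-1 and CD140a with no CD45 or CD71 and little or no Ter119. No group had a replicate library, so no test was made and every interval below is a 95% interval for counting error only.

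The libraries held 425 to 7511 barcodes and 1270763 to 82466835 UMIs (unique molecular identifiers, each counting 1 captured transcript). Between 3.74% and 10.4% of a library's barcodes carried more UMIs in another library and were left out. Median depth of the kept cells was 15136 UMIs in KLS control (3085 cells), 10085 in KLS STAT5 KO (6726 cells), 2732 in MSC control (577 cells) and 2496 in MSC STAT5 KO (374 cells). The deleted genes checked the KLS labels. CPM is the number of UMIs of a gene scaled to 1000000 UMIs. Stat5a stood at 68.5 CPM in KLS control and 6.74 CPM in KLS STAT5 KO, and Stat5b at 60.8 and 4.49 CPM. Stromal cells of the MSC libraries are those in which more of 10 stromal markers than of 10 blood markers had a UMI. In them Stat5a was at 44.5 and 60.8 CPM and Stat5b at 55.9 and 49.7 CPM, which gives no check of those labels. Pdgfra, which encodes CD140a, was at 319.6 and 260.6 CPM in these stromal cells and had 0 UMIs in both KLS libraries.

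KLS cells were split by lineage marker UMIs into 6 gates. The stem triad gate needed a UMI of each of Hlf, Mecom and Procr, genes of hematopoietic stem cells. The lymphoid gate needed 2 UMIs of Dntt, the megakaryocyte gate 2 UMIs of Pf4, and the erythroid gate a UMI each of Klf1 and Gata1. The granule gate needed 2 UMIs of at least 2 of Elane, Prtn3 and Ctsg, which encode proteases of neutrophil granules. Cells in no gate are called multipotent, a name for the rule rather than a tested cell type, and cells in more than 1 gate were set aside as mixed. In control and STAT5 KO the gates held 343 and 265 stem triad cells, 781 and 1861 lymphoid cells, 112 and 227 megakaryocyte cells, 39 and 113 erythroid cells, 263 and 867 granule cells, and 1095 and 2531 multipotent cells. Gates need UMIs, so they fill with depth. With every cell thinned to 4000 UMIs the stem triad gate took up 3.56% of the control and 1.46% of the STAT5 KO library, against 11.1% and 3.94% unthinned. Stem triad cells made up a lower share of the STAT5 KO library by either count.

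Residual Stat5 transcripts differed between gates of the STAT5 KO library. Stat5a stood at 35.0% of its control level in the stem triad gate and 23.8% in the megakaryocyte gate, against 1.88% in the lymphoid and 5.37% in the granule gate. Of the STAT5 KO cells, 26.8% of the stem triad gate and 1.40% of the lymphoid gate held a Stat5a or Stat5b UMI. Ratios without these cells are given below for the receptors where they moved most or crossed 0, and what the residual transcripts did to the ratios was not tested.

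Sequences upstream of the start sites are shown for Kit, Flt3, Tek and Tie1, which were lower in STAT5 KO over all KLS cells, because TTCNNNGAA, the letters that STAT factors bind, was searched for in them. They are from RefSeq (GRCm38.p6), 5′ to 3′ on the gene's strand, for Kit at chr5:75574737-75574915 (plus), Flt3 at chr5:147400490-147400739 (minus), Tek at chr4:94739039-94739288 (plus) and Tie1 at chr4:118490062-118490099 (minus). Capitals mark the GC box letters GGGCGG.
Kit: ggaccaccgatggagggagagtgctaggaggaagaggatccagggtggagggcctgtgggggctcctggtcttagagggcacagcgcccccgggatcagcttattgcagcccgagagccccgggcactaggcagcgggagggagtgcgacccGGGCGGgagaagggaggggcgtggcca
Flt3: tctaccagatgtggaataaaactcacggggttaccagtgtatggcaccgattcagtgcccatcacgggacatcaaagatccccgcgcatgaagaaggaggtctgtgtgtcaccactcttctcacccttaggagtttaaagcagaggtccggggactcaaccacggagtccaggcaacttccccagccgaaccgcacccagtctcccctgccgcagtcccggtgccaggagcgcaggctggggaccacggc
Tek: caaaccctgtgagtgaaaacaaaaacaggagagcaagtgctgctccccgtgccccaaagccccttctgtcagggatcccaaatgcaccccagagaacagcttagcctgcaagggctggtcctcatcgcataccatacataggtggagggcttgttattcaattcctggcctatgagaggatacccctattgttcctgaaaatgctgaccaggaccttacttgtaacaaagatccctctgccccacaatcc
Tie1: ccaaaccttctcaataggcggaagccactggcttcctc
Windows from 250 bases before to 50 after the start were searched on both strands for 5 of the 7 genes, those of Kit, Flt3, Tek, Tie1 and Igf1r. The STAT letters TTCNNNGAA were in 0 of the 5 windows and in 8.30% of all 32851 windows. The GATA letters AGATAA were in 1 of 5, that of Tek, and in 11.2% of all windows. The GC box letters were in 2 of 5, those of Kit and Igf1r, and in 35.7% of all windows. No match says only that these letters are not in these windows.

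Over all kept KLS cells the angiopoietin receptor pair differed most between the libraries. Tek stood at 6.49 CPM (332 UMIs) in control but at 4.10 CPM (313 UMIs) in STAT5 KO, a log2 ratio of -0.66 (-0.89 to -0.44). Tie1 stood at 30.5 CPM (1558 UMIs) and 19.7 CPM (1506 UMIs), a log2 ratio of -0.63 (-0.73 to -0.52). The 1.5-fold mark is a size of difference, not a test. Of the 7 receptors, these 2 passed 1.5-fold, both lower in STAT5 KO, where 7.21% of the 12074 genes with at least 100 UMIs did so in either direction (248 higher and 622 lower). Genes that reach this minimum in a comparison are called counted below. The median log2 ratio of the 7 was -0.24, against -0.01 over all genes tested.

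The other 5 receptors differed by less than 1.5-fold. Kit stood at 210.1 and 177.7 CPM in control and STAT5 KO, a log2 ratio of -0.24 (-0.28 to -0.20). Flt3 was at 168.8 and 139.7 CPM, a log2 ratio of -0.27 (-0.31 to -0.23). Both were lower in STAT5 KO beyond counting error. Igf1r was at 123.3 and 116.0 CPM, a log2 ratio of -0.09 (-0.13 to -0.04). The intervals of Csf1r, at 6.34 and 5.51 CPM (-0.41 to 0.01 for a log2 ratio of -0.20), and of Insr, at 24.1 and 25.1 CPM (-0.05 to 0.16 for a log2 ratio of 0.06), held 0.

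Part of these ratios moved with the mix of gates. With each gate of STAT5 KO given its share in control, Tek was at -0.39 and Tie1 at -0.41 on the log2 scale, which are both under 1.5-fold. Tie1 was also under it, at -0.53, with a stricter cell filter and when the CPM of single cells were averaged. With the STAT5 KO cells that hold a Stat5 UMI left out, Tek was at -0.95 (-1.19 to -0.70) and Tie1 at -0.87 (-0.98 to -0.76). Those cells made up 26.8% of the stem triad and 18.5% of the megakaryocyte gate, against 1.40% of the lymphoid gate. Leaving them out of STAT5 KO alone thus also changed its mix of gates, and the part of that in these 2 values was not tested. In cells of 8000 to 16000 UMIs, 1159 in control and 2980 in STAT5 KO, Tek and Tie1 were at -0.84 (-1.21 to -0.45) and -0.83 (-1.003 to -0.66). Both were lower in STAT5 KO with each of these sets of cells.

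**Figure D1:**
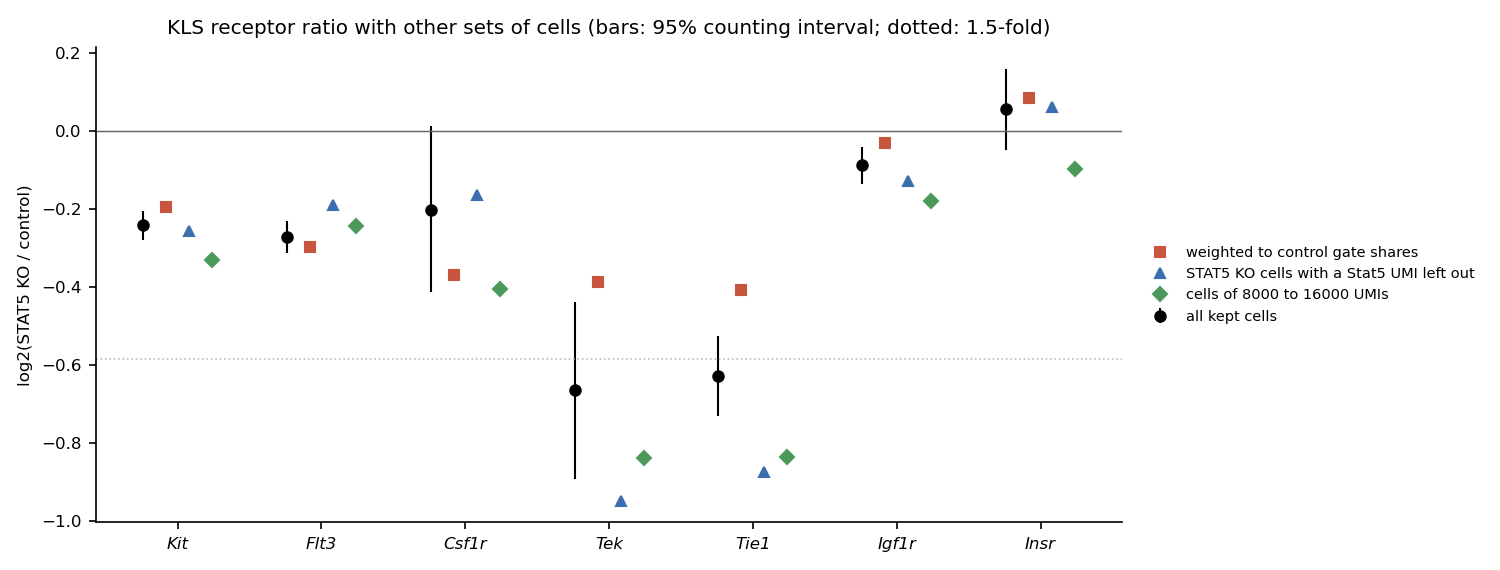
Log2 ratio of STAT5 KO to control for the 7 receptors over KLS cells (vertical axis), with all kept cells in black (bars are 95% counting intervals) and 3 other sets of cells in colour. Tek and Tie1 lie below the dotted 1.5-fold line except after weighting to the control's gate shares, where they are at -0.39 and -0.41.

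Markers of other cells were counted beside these values, against 2.05% of all 12074 counted genes higher and 5.15% lower past 1.5-fold. Among stem cell markers of KLS cells, Hlf stood at 261.4 CPM in control but at 163.9 CPM in STAT5 KO, Procr at 21.3 and 13.2 CPM, and Fgd5 at 6.14 and 3.57 CPM, each lower past 1.5-fold. Meg3 was at 7.04 and 0.92 CPM, and Mecom, at 65.9 and 57.8 CPM, was lower by less than that. Of 8 endothelial markers, 6 had enough UMIs and 1 of them, Emcn, was lower past 1.5-fold. The list stood at 295.0 and 272.8 CPM, and Cdh5, a defining endothelial gene, was at 0.04 and 0.07 CPM. Of the mast cell and basophil markers 2 of 6 were higher (Mcpt8 and Fcer1a), and the list stood at 181.8 and 217.4 CPM. Of the dendritic cell markers 1 of 4 counted was higher (H2-Aa), and that list stood at 125.4 and 143.1 CPM. Markers also differed within the multipotent gate. There 4 of 6 mast cell and basophil markers were higher past 1.5-fold, against 1.82% of 10656 genes, and that list stood at 225.2 and 364.4 CPM. Hlf was at 354.3 and 251.3 CPM in that gate, and Mecom at 82.2 and 82.4 CPM. The part of the stem, mast and dendritic cell markers in the receptor ratios was not tested.

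The KIT receptor gene (ENSMUSG00000005672, chromosome 5, 75574916 to 75656722, plus strand, GRCm38) was most abundant in the stem triad gate. In KLS control Kit stood at 289.6 CPM there (274.6 to 305.1), 252.7 in multipotent, 239.6 in megakaryocyte, 180.8 in granule, 171.7 in erythroid and 154.1 CPM in lymphoid cells. The multipotent and megakaryocyte gates overlapped in their intervals, as did granule with erythroid and erythroid with lymphoid. STAT5 KO cells gave 253.1, 225.4, 202.5, 148.6, 151.5 and 150.1 CPM in the same order, and the lowest 3 gates overlapped. Every gate therefore held Kit, and the stem triad gate exceeded the lowest gate 1.88-fold in control and 1.70-fold in STAT5 KO.

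Kit was lower in STAT5 KO in the stem triad gate by a log2 ratio of -0.19 (-0.33 to -0.06), in the megakaryocyte gate by -0.24 (-0.42 to -0.06), in the granule gate by -0.28 (-0.39 to -0.17) and in the multipotent gate by -0.17 (-0.23 to -0.10). In the lymphoid gate the log2 ratio was -0.04 (-0.12 to 0.05). Without the STAT5 KO cells that hold a Stat5 UMI the megakaryocyte value was -0.19 (-0.38 to 0.002), an interval that holds 0. With cells thinned to 4000 UMIs, 56.3% of control and 50.01% of STAT5 KO KLS cells held a Kit UMI, against 89.9% and 77.6% unthinned. Such shares rest on 1 random draw of UMIs per cell, and the share expected over all possible draws, computed exactly, was 56.01% and 50.2%. In gates of few cells draws differed more, and the expected share is given beside the drawn one. Stromal cells, which should lack Kit, held one in 2.10% of control cells at a median of 3549 UMIs and in 1.12% of STAT5 KO cells at a median of 3358 UMIs. Kit in KLS cells lay far above that level, which the sort for c-Kit selected and which is not a result.

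**Figure D2:**
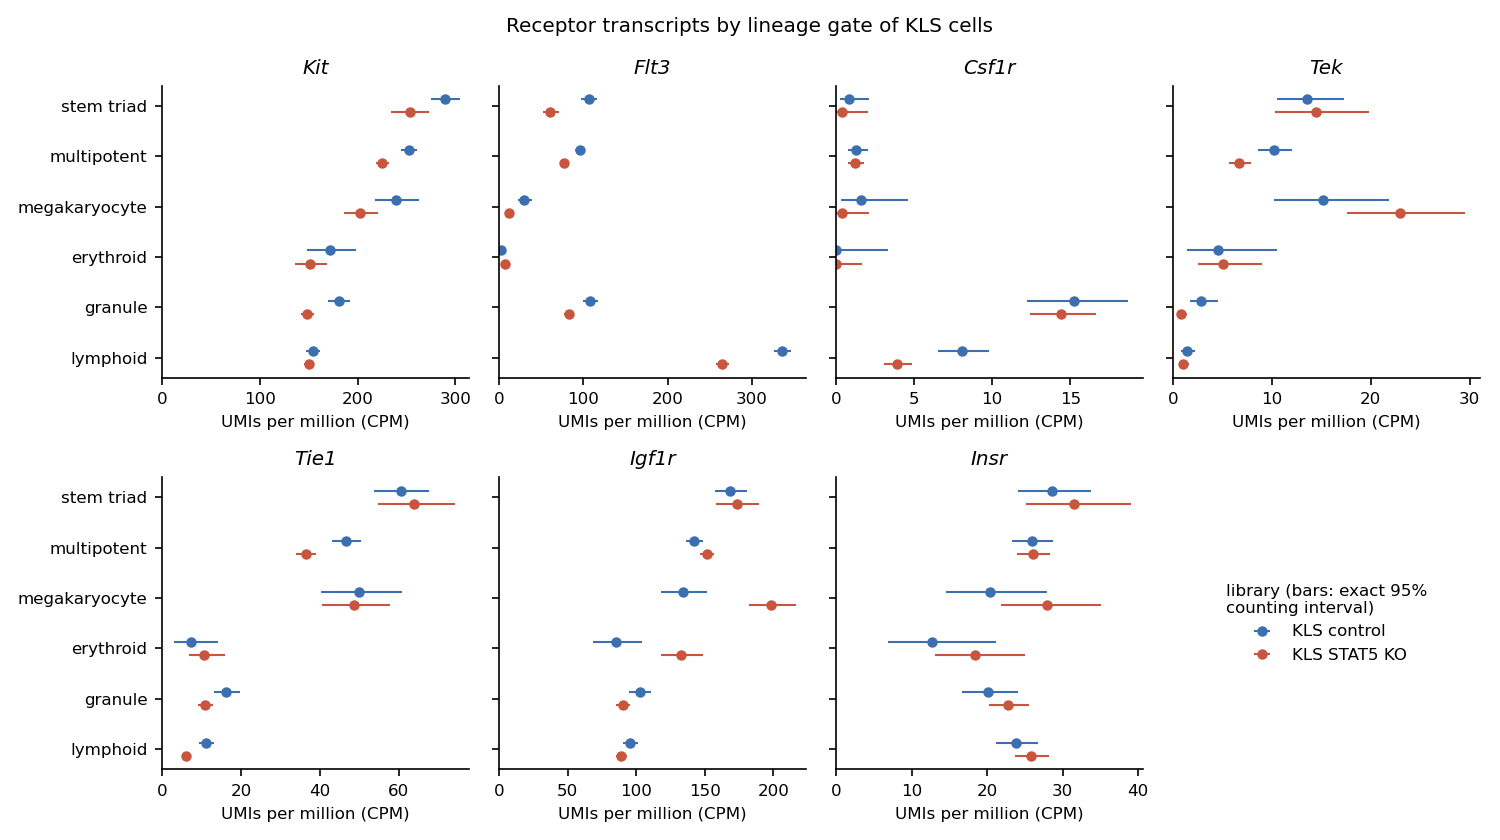
Summed CPM of each receptor (horizontal axes, each from 0) in the 6 gates of KLS control (blue) and KLS STAT5 KO (red), with bars for exact 95% counting intervals. Kit, Tie1 and Tek are high in the stem triad and megakaryocyte gates, Flt3 in the lymphoid gate at 336.2 and 265.1 CPM, and Csf1r in the granule gate.

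FLT3 marks progenitors on the way to lymphoid and myeloid fates, and Flt3 (ENSMUSG00000042817, chromosome 5, 147330741 to 147400489, minus strand) varied more between gates than Kit. In KLS control it stood at 336.2 CPM in lymphoid, 108.2 in granule, 106.6 in stem triad, 95.7 in multipotent, 29.9 in megakaryocyte and 2.71 CPM in erythroid cells. The intervals of granule, stem triad and multipotent cells overlapped from neighbour to neighbour. In STAT5 KO the values were 265.1, 82.4, 60.5, 76.9, 11.3 and 6.43 CPM in the same gates. The lymphoid gate led in both libraries, 3.11-fold above the next gate in control and 3.22-fold in STAT5 KO.

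Flt3 was lower in STAT5 KO within 5 gates beyond counting error. The mixed cells, set aside from the gates, held Flt3 at 175.0 and 167.2 CPM (1952 and 2454 UMIs). Their log2 ratio was -0.07 (-0.15 to 0.02), an interval that holds 0. In the stem triad gate the log2 ratio was -0.82 (-1.08 to -0.56, 517 and 163 UMIs), and Flt3 was the 1 of 6 counted receptors past 1.5-fold there, against 4.17% of 8255 genes. That value was -0.14 when gates were set on thinned cells, -0.46 (-0.73 to -0.20) without the STAT5 KO cells that hold a Stat5 UMI, and -0.28 (-0.66 to 0.10) in cells of 8000 to 16000 UMIs, so its size depended on which cells entered the gate. In the lymphoid gate the log2 ratio was -0.34 (-0.40 to -0.28), in granule cells -0.39 (-0.54 to -0.25) and in multipotent cells -0.32 (-0.42 to -0.21). The granule value ran from -0.69 to -0.06 across the other sets of cells, the smallest with gates set on thinned cells. The lymphoid value changed little across the other sets of cells, from -0.42 to -0.28. In megakaryocyte cells 57 UMIs in control and 30 in STAT5 KO gave a log2 ratio of -1.40 (-2.09 to -0.74).

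Per cell, the lymphoid gate separated from the rest as well. Of lymphoid cells thinned to 4000 UMIs, 72.0% (68.7 to 75.1%) held a Flt3 UMI in control and 62.0% (59.7 to 64.2%) in STAT5 KO, and 17.8% and 10.9% held 3 or more. Over all draws 73.1% and 63.4% were expected to hold one, and 19.2% and 11.8% to hold 3 or more. The erythroid gate, which should lack Flt3, gave 1 of 39 and 1 of 112 thinned cells. Unthinned, 96.9% and 86.7% of lymphoid cells held Flt3 at median depths of 14703 and 10088 UMIs, against 5.13% and 7.96% of erythroid cells at 22567 and 17534 UMIs. A gene on the other strand, Gm26597, overlaps Flt3 and held 455 UMIs in KLS cells, and the strand rule of the counting is not given in the sources used here.

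**Figure D3:**
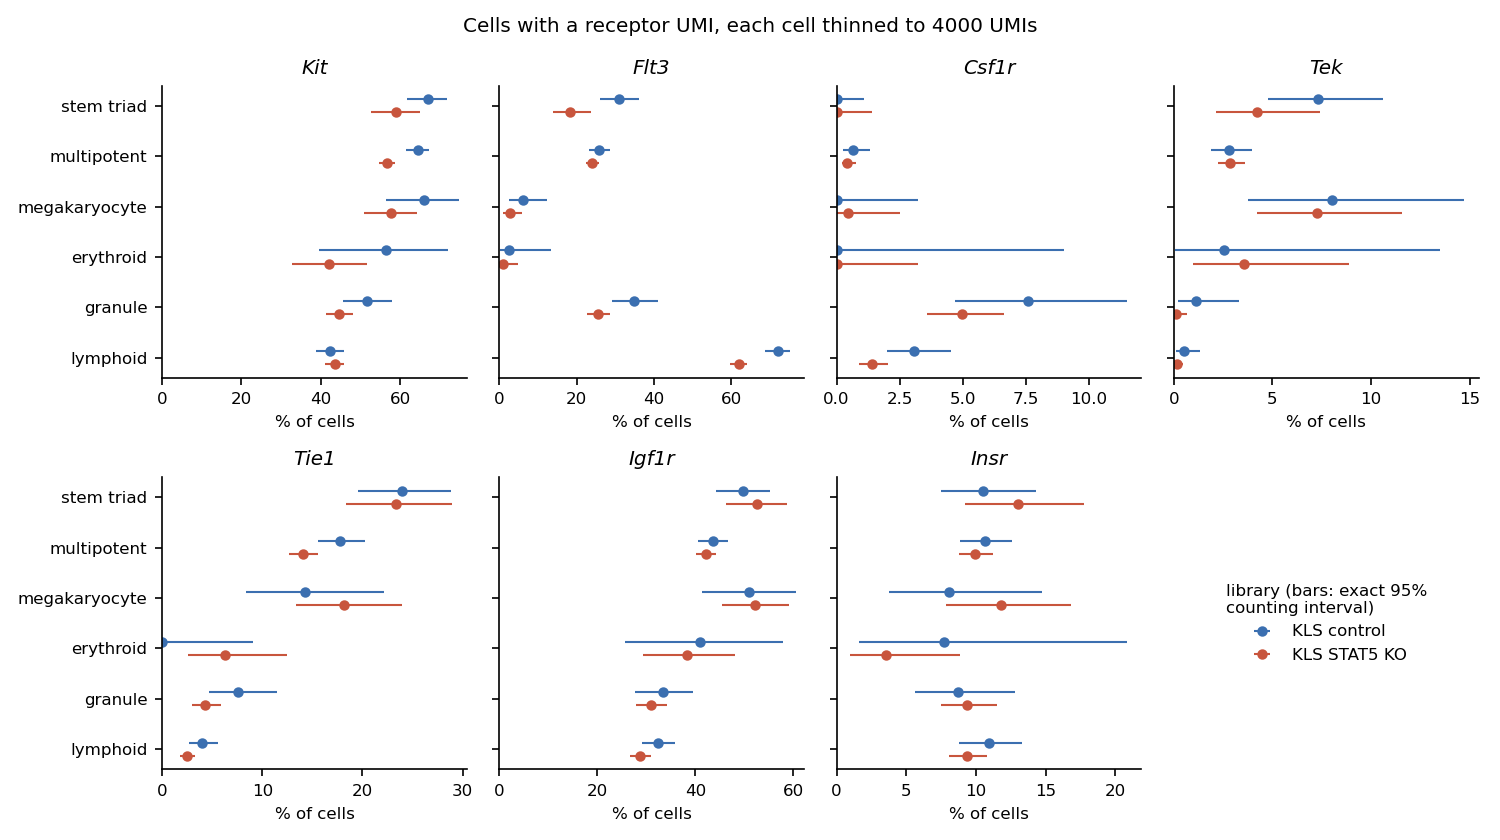
Percent of KLS cells with at least 1 UMI of each receptor after thinning each cell to 4000 UMIs (horizontal axes, each from 0), by gate, in control (blue) and STAT5 KO (red), with bars for exact 95% intervals. Lymphoid cells lead for Flt3 at 72.0% and 62.0%, and Csf1r is found in under 8% of cells of any gate.

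CSF1R is the receptor for macrophage colony-stimulating factor and interleukin 34, and Csf1r (ENSMUSG00000024621, 324 and 421 UMIs in the KLS libraries) was concentrated in 2 gates. It stood at 15.2 CPM (12.2 to 18.7) in control granule cells and 8.06 CPM (6.55 to 9.82) in control lymphoid cells. In the stem triad, megakaryocyte and multipotent gates of control it was at 0.82, 1.57 and 1.29 CPM. No erythroid cell held it, 0 of 39 cells in control and 0 of 113 in STAT5 KO. Of thinned granule cells 7.60% held a Csf1r UMI in control and 4.96% in STAT5 KO, where 5.01% and 4.24% were expected over all draws. A thinning to 2000 UMIs gave 0.38% (1 of 263) and 2.42% (21 of 867), so the drawn granule shares have no stable direction. Of thinned lymphoid cells 3.08% and 1.39% held Csf1r, with 3.31% and 1.59% expected.

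The gates with Csf1r gave different ratios. In lymphoid cells Csf1r was at 8.06 CPM (99 UMIs) in control and at 3.89 CPM (78 UMIs) in STAT5 KO, a log2 ratio of -1.05 (-1.50 to -0.61). In granule cells it was at 15.2 CPM (90 UMIs) and 14.4 CPM (182 UMIs), a log2 ratio of -0.08 (-0.45 to 0.30). These intervals did not overlap, though the difference between the gates was not tested. The lymphoid ratio ran from -1.55 to -0.64 across the other sets of cells, and the granule ratio from -0.54 to -0.05. In cells of 8000 to 16000 UMIs the ratio was -1.55 (-2.22 to -0.88) in lymphoid and -0.54 (-1.56 to 0.63) in granule cells. The intervals overlapped in that set.

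Macrophage and monocyte markers were measured beside it. The 10 markers summed to 224.4 CPM for control and 184.1 CPM for STAT5 KO, most of it Lyz2, at 186.5 and 149.9 CPM. Of the 8 counted ones 3 (C1qa, C1qb and Ly6c2) were lower past 1.5-fold, against 5.15% of all 12074 counted genes. Lyz2 and Fcgr3 were lower by less than that. Itgam, Cx3cr1 and Cd68 were higher, at log2 ratios of 0.10, 0.28 and 0.15 with intervals that held 0. C1qa, a macrophage gene, was at 0.65 and 0.70 CPM in control and STAT5 KO lymphoid cells, and at 3.55 and 0.55 CPM in granule cells. Its highest control levels were in the stem triad and megakaryocyte gates, at 4.74 and 4.72 CPM, where Csf1r was at 0.82 and 1.57 CPM. C1qa had 147 UMIs in control and 110 in STAT5 KO over all KLS cells, and its gate levels are given without intervals. The part of macrophage RNA in the Csf1r levels was not tested. Hmgxb3 overlaps Csf1r on the other strand with 2080 UMIs in KLS cells.

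TEK and its partner TIE1 are the angiopoietin receptors, TEK binding the ligands and TIE1 lacking a known high-affinity ligand. Tek (ENSMUSG00000006386, chromosome 4, 94739289 to 94874976, plus strand) was at 15.2 CPM in megakaryocyte, 13.6 in stem triad and 10.2 CPM in multipotent cells of KLS control. It was at 4.52 CPM in erythroid, 2.87 in granule and 1.38 CPM in lymphoid cells. In STAT5 KO the same gates gave 23.0, 14.5, 6.70, 5.05, 0.79 and 1.05 CPM. The megakaryocyte and stem triad gates led in both libraries and overlapped in their intervals.

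Tie1 (ENSMUSG00000033191, chromosome 4, 118471191 to 118490061, minus strand) followed a similar order with more UMIs. In KLS control it stood at 60.4 CPM in stem triad, 49.8 in megakaryocyte, 46.6 in multipotent, 16.2 in granule, 10.996 in lymphoid and 7.23 CPM in erythroid cells. In STAT5 KO it was at 63.8, 48.7, 36.3, 10.9, 5.98 and 10.6 CPM. The stem triad gate exceeded the lymphoid gate 5.49-fold in control and 10.7-fold in STAT5 KO.

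The lower total of both genes in STAT5 KO was not found in every gate. In stem triad cells the log2 ratio was 0.09 (-0.52 to 0.68) for Tek and 0.08 (-0.20 to 0.36) for Tie1, both holding 0. Tie1 was at -0.03 (-0.43 to 0.36) in megakaryocyte cells, where Tek was at 0.60 (-0.06 to 1.29). In multipotent cells, whose mast cell and basophil markers also differed between the libraries, Tek was at -0.61 (-0.95 to -0.26) and Tie1 at -0.36 (-0.51 to -0.21). In lymphoid cells Tie1 was at -0.88 (-1.24 to -0.51, 135 and 120 UMIs), and in granule cells at -0.57 (-0.96 to -0.18). Tek in granule cells rested on 17 and 10 UMIs, with a log2 ratio of -1.86 (-3.15 to -0.65). In the mixed cells, set aside from the gates, Tie1 was at -1.38 (-1.68 to -1.08, 282 and 143 UMIs). Tek was at -1.45 there (-2.17 to -0.76, 56 and 27 UMIs). Without the STAT5 KO cells that hold a Stat5 UMI, multipotent Tek was at -0.83 and Tie1 at -0.57, and megakaryocyte Tek was at 0.72 (0.04 to 1.43), above 0. In the multipotent gate 2.79% of control and 2.86% of STAT5 KO thinned cells held Tek, but 2.30% and 0.96% did with thinning to 2000 UMIs. The Tek shares expected over all draws to 4000 UMIs were 3.67% and 2.76%. Tie1 was held by 17.8% (15.5 to 20.2%) and 14.1% (12.7 to 15.5%) of multipotent cells, with 17.7% and 13.3% expected. The stem triad ratio of Tek was -0.89 when gates were set on thinned cells and -0.53 (-1.34 to 0.23) without the STAT5 KO cells that hold a Stat5 UMI, so no direction is given for it.

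Against the background of all genes, 2 of 6 counted receptors passed 1.5-fold in lymphoid cells (Csf1r and Tie1, both lower), where 4.76% of 10333 genes did. Lymphoid Tie1 was under 1.5-fold in cells of 8000 to 16000 UMIs, at -0.52 (-1.25 to 0.25). In multipotent cells 1 of 6 did (Tek, lower) against 4.61% of 10656 genes, and in granule cells 0 of 6 against 3.93% of 9381 genes. In megakaryocyte cells 0 of 4 did against 5.94% of 6452 genes. Multipotent Tek lay near the mark and was under it with 5 of the other sets or scalings, reaching -0.48 with the CPM of single cells averaged. Receptors with fewer than 100 UMIs over both libraries in a gate are in none of these counts.

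**Figure D4:**
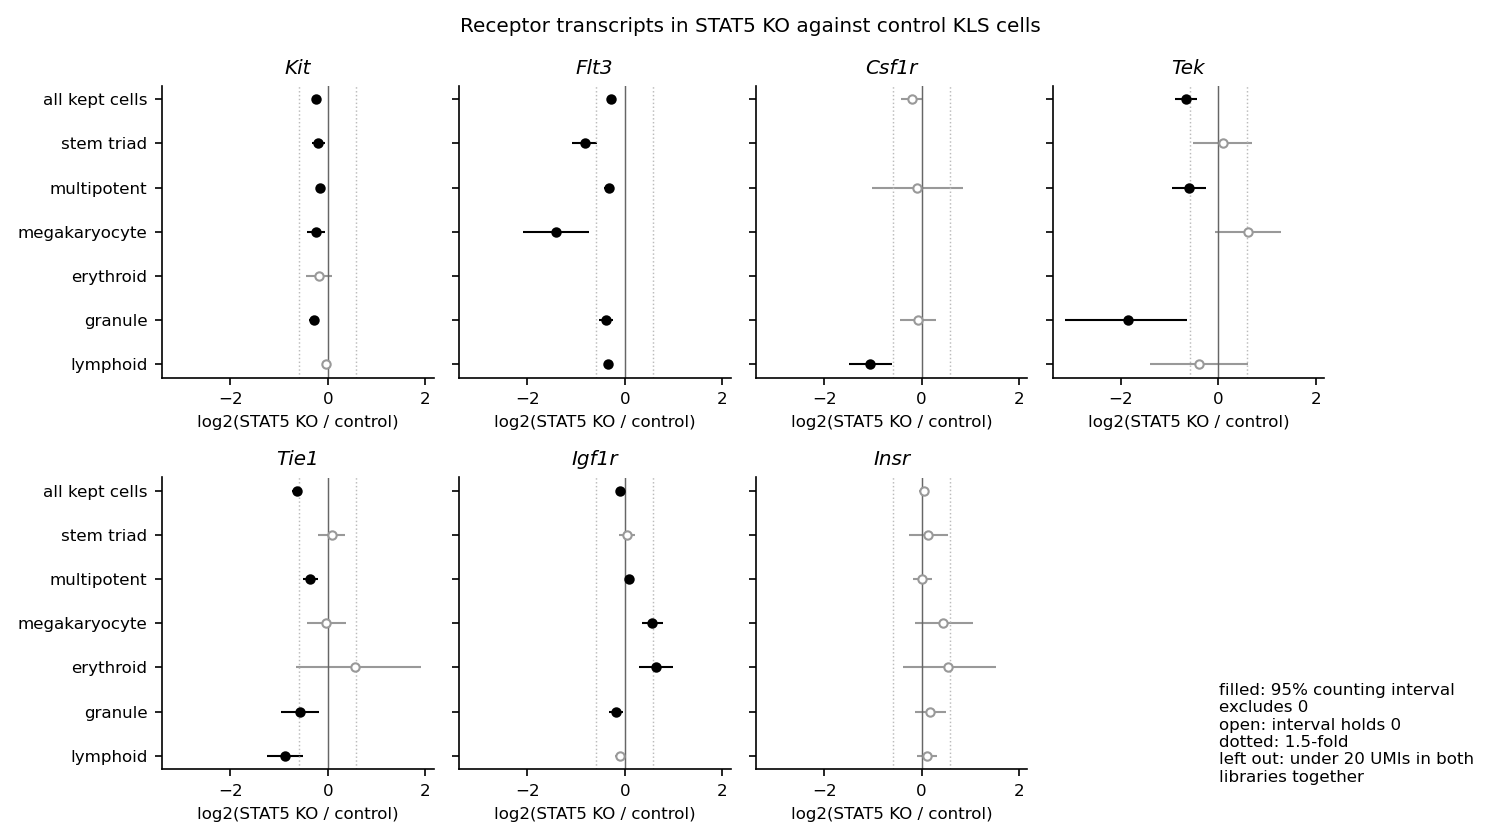
Log2 ratio of STAT5 KO to control (horizontal axes) for each receptor over all kept KLS cells and in each gate, with 95% counting intervals. Filled points have an interval that excludes 0, and dotted lines mark 1.5-fold. Igf1r lies above 0 in megakaryocyte and erythroid cells (0.56 and 0.64) and below 0 in granule cells (-0.18), and Tie1 lies near 0 in stem triad and megakaryocyte cells.

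Single cells with Tie1 held Tek more often than those without. After thinning, 5.26% of Tie1-positive control cells held a Tek UMI (20 of 380) against 2.24% of Tie1-negative ones, and 5.13% (28 of 546) against 1.34% in STAT5 KO. Within the stem triad gate the shares were 7.32% and 7.31% in control and 4.92% and 4.00% in STAT5 KO. Inside that gate the shares with and without Tie1 differed by less than their counting intervals. Multipotent cells gave 3.66% and 2.60% in control and 4.86% and 2.54% in STAT5 KO. Megakaryocyte cells gave 2 of 16 and 7 of 96 in control, and 7 of 40 and 9 of 180 in STAT5 KO. Lymphoid cells gave 2 of 31 and 2 of 748, and 1 of 45 and 2 of 1758. Control granule cells gave 1 of 20 and 2 of 243. The order was opposite in STAT5 KO granule (0 of 36 and 1 of 810) and erythroid cells (0 of 7 and 4 of 105). The intervals overlapped in each gate. Over all KLS cells Tie1-positive cells held Flt3 in 30.5% against 43.0% in control and in 19.0% against 38.2% in STAT5 KO. Within the multipotent gate the shares were 23.6% and 26.3% in control and 16.7% and 25.2% in STAT5 KO, and within the control granule gate the order was opposite, 10 of 20 Tie1-positive cells against 33.7%. The lower share among Tie1-positive cells was therefore not found in every gate. As background, thinned granule cells held Tie1 in 7.60% and 4.26% and Tek in 1.14% and 0.12%.

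IGF1R signals growth and survival in response to insulin-like growth factors. Igf1r (ENSMUSG00000005533, chromosome 7, 67952827 to 68233668, plus strand) was at 168.4 CPM in stem triad, 142.2 in multipotent, 134.2 in megakaryocyte, 102.4 in granule, 95.5 in lymphoid and 85.0 CPM in erythroid cells of control. In STAT5 KO megakaryocyte cells led at 198.4 CPM, before stem triad at 173.3, multipotent at 151.6, erythroid at 132.7, granule at 90.3 and lymphoid at 89.0 CPM. The first 2 of these overlapped in their intervals. Megakaryocyte and erythroid cells thus stood higher in the order of gates in STAT5 KO than in control.

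The direction of the Igf1r difference depended on the gate. In megakaryocyte cells the log2 ratio was 0.56 (0.35 to 0.79, 256 and 526 UMIs). In erythroid cells it was 0.64 (0.30 to 0.99, 94 and 289 UMIs), and Igf1r was 1 of 2 counted receptors past 1.5-fold there, against 5.1% of 4880 genes. With overlapping gates the erythroid value was 0.04, and in the 10 control and 39 STAT5 KO erythroid cells of 8000 to 16000 UMIs it was 0.23 (-0.40 to 0.92). The megakaryocyte value ran from 0.31 to 0.76 across the other sets of cells. In granule cells the log2 ratio was -0.18 (-0.32 to -0.04), and in stem triad cells it was 0.04 (-0.13 to 0.21). In the mixed cells, set aside from the gates, it was -0.38 (-0.49 to -0.28). The multipotent value of 0.09 (0.01 to 0.17) changed sign in cells of 8000 to 16000 UMIs and with gates on thinned cells, and was 0.07 (-0.02 to 0.15) without the STAT5 KO cells that hold a Stat5 UMI. Of thinned megakaryocyte cells 50.9% held an Igf1r UMI in control and 52.3% in STAT5 KO, but 17.0% (10.5 to 25.2%) and 28.3% (22.5 to 34.7%) did with thinning to 2000 UMIs. Over all draws to 4000 UMIs 41.4% and 52.3% were expected to hold one, and 2.02% and 5.32% to hold 3 or more. Of thinned erythroid cells 41.0% and 38.4% held a UMI, and 10.3% and 26.5% with thinning to 2000 UMIs, where 33.6% and 42.4% were expected over all draws to 4000. The expected shares were thus higher in STAT5 KO in both gates, as the CPM were, while the shares of single draws depended on the draw.

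The insulin receptor gene Insr (ENSMUSG00000005534, chromosome 8, 3122061 to 3279617, minus strand) was spread over all gates. In control it ran from 12.7 CPM in erythroid to 28.7 CPM in stem triad cells, and in STAT5 KO from 18.4 to 31.5 CPM in the same gates. Each gate overlapped its neighbour in the order of levels, while the first and last did not overlap in either library. With all kept cells no gate had a log2 ratio whose interval excluded 0, and the widest departures were 0.54 (-0.37 to 1.53) in erythroid and 0.45 (-0.13 to 1.05) in megakaryocyte cells. In cells of 8000 to 16000 UMIs the granule value was -0.80 (-1.40 to -0.16), against 0.18 in all granule cells, and with 1 more UMI asked of each gate gene the stem triad value was -0.87, against 0.14. Of thinned KLS cells 10.5% in control and 9.48% in STAT5 KO held an Insr UMI, with 10.1% expected over all draws in both. No fully receptor-negative cell type was set for Igf1r and Insr, so their shares have no background value.

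The receptors were compared with each other and with other genes over 12 points, the 6 gates in each KLS library. These points share 2 libraries and differ in depth and cell number, and Pearson r of log2(CPM + 1) is given as a description. Kit and Tie1 were most alike (r = 0.92), then Tie1 or Tek with Igf1r (both 0.89) and Tek with Tie1 (0.87). Flt3 was near 0 with Kit (0.04) and with Tie1 (0.03), and reached 0.68 with Csf1r. Csf1r and Tek were the most opposed pair (-0.70). Kit, Tek, Tie1 and Igf1r were thus alike in their gate levels, and Flt3 and Csf1r, which were highest in lymphoid and granule cells, differed from them.

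Among 9085 genes with at least 1000 UMIs, the 5 most like Kit were Nfe2 (r = 0.98), Timp2, Cdkn1c, Usp54 and Capns1. For Flt3 they were Xpc (r = 0.99), Ramp1, Ctss, Tspan2 and Wfdc17. For Tie1 they were Csgalnact1 and Esam (both r = 0.98), Ocrl, Gng11 and Cavin3. Igf1r was most like Snap47 (r = 0.97), Mast4, Plcb4, Cpne2 and Tmem164, and Insr was most like Pik3ca (r = 0.98), Kmt2a, Cd74, Tlk2 and Rsf1. Csf1r and Tek had under 1000 UMIs and were left out of this ranking.

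In the stroma, Igf1r, Insr and Tek were the receptors with the most UMIs. Igf1r stood at 105.5 CPM (166 UMIs in 429 cells) in control and 105.0 CPM (114 UMIs in 268 cells) in STAT5 KO stromal cells, a log2 ratio of -0.01 (-0.36 to 0.35). Tek was at 16.5 CPM (26 UMIs) and 14.7 CPM (16 UMIs), a log2 ratio of -0.17 (-1.16 to 0.79). Insr was at 19.7 and 19.3 CPM, a log2 ratio of -0.03 (-0.90 to 0.82). None of these differed beyond counting error, and the 1 receptor with at least 100 UMIs, Igf1r, did not pass 1.5-fold, where 13.5% of 4220 genes did.

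Kit had 12 and 3 UMIs in stromal cells, and Csf1r and Tie1 had 1 UMI each in control and 0 in STAT5 KO. Flt3 had 0 UMIs in both, which allows up to 1.91 CPM for control and 2.76 CPM for STAT5 KO. Cdh5 was at 2.54 and 4.60 CPM in the same cells, and the macrophage genes Adgre1 and C1qa had 0 UMIs. The summed endothelial markers stood at 47.0 and 59.9 CPM, the macrophage and monocyte markers at 33.0 and 28.6 CPM. The part of endothelial RNA in the Tek level of stromal cells was not tested.

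The ligands of these receptors were mostly stromal. Kitl, stem cell factor, was at 451.2 and 334.3 CPM in control and STAT5 KO stromal cells, a log2 ratio of -0.43 (-0.62 to -0.25), and had 3 and 15 UMIs in the KLS libraries. Csf1 was at 260.5 and 181.4 CPM (-0.77 to -0.27 for a log2 ratio of -0.52), and Il34 at 97.2 and 43.3 CPM, a log2 ratio of -1.17 (-1.67 to -0.69). Igf1 was at 366.7 and 201.7 CPM, a log2 ratio of -0.86 (-1.09 to -0.64). Of the 5 ligands with enough UMIs in stromal cells, Il34 and Igf1 were lower past 1.5-fold and none was higher, where 8.34% of all 4220 counted genes were lower and 5.12% higher. The median log2 ratio of these ligands was -0.52, against -0.10 over all genes tested.

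Angpt1 was distributed otherwise, while Angpt2, Angpt4 and Flt3l were higher in stromal than in KLS cells. Angpt1, the activating ligand of TEK, was at 210.2 and 204.3 CPM in control and STAT5 KO KLS cells, and at 61.6 and 60.8 CPM in stromal cells. Angpt2 was at 1.47 and 2.19 CPM in KLS cells and at 18.4 and 16.6 CPM in stromal cells (29 and 18 UMIs). Angpt4 had 0 and 1 UMIs in KLS cells and 25 and 18 UMIs in stromal cells. Flt3l was at 8.55 and 8.30 CPM in KLS cells and 26.7 and 18.4 CPM in stromal cells (42 and 20 UMIs), with a stromal log2 ratio of -0.53 (-1.38 to 0.27). In KLS cells 1 of 5 counted ligands, Igf1, was lower past 1.5-fold, at 1.41 and 0.62 CPM, against 5.15% of all genes.

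**Figure D5:**
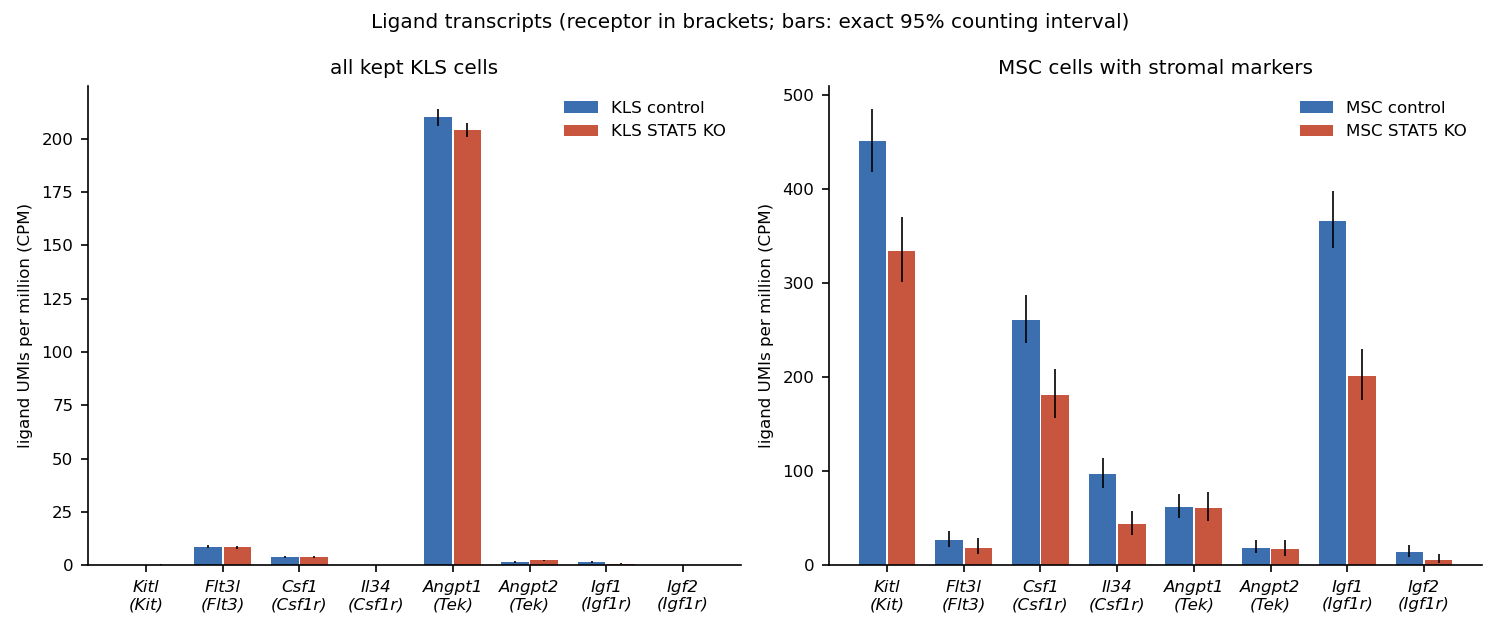
Ligand CPM (vertical axes, linear from 0) in all kept KLS cells (left) and MSC cells with stromal markers (right), control in blue and STAT5 KO in red, with exact 95% counting intervals and the receptor in brackets. Kitl, Csf1, Il34 and Igf1 are stromal and lower in STAT5 KO, and Angpt1 has the highest level of these ligands in KLS cells, at 210.2 and 204.3 CPM.

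Downstream of the receptors, no counted adaptor or inhibitor passed 1.5-fold over all kept KLS cells. Of 11 counted adaptors and kinase partners 0 passed it, against 7.21% of all genes, with a median log2 ratio of -0.10. Ptpn11, the phosphatase SHP2, was at 47.3 and 58.8 CPM (0.24 to 0.38 for a log2 ratio of 0.31). Gab1 was lower by a log2 ratio of -0.48 (-0.65 to -0.31) and Irs2 by -0.45 (-0.67 to -0.23). Of 16 inhibitors 0 passed it, with a median of -0.04, and Sla2, an adaptor that dampens receptor signalling, was at 10.4 and 7.17 CPM. In megakaryocyte cells 2 of 8 adaptors and 2 of 11 inhibitors were higher past 1.5-fold, against 3.56% of 6452 genes. In erythroid cells 1 of 6 inhibitors was higher, against 3.79% of 4880 genes. In multipotent cells 2 of 11 adaptors were lower, against 2.79% of 10656 genes. None passed it in stem triad, lymphoid or granule cells. Of 3 counted genes of the insulin-like growth factor system 1 was lower, Igfbp7, at 1.70 and 1.07 CPM. Among 39 other receptor tyrosine kinases 12 were counted, and Axl, Ephb4 and Ryk were lower past 1.5-fold and none was higher, with a median of -0.33 against -0.01 over all genes.

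In stromal cells 0 of 6 counted adaptors passed 1.5-fold, against 13.5% of 4220 genes (8.34% lower and 5.12% higher). Of 8 inhibitors Ptpn1 was higher, at 75.0 and 116.0 CPM, and Dok1 was lower, at 48.3 and 27.6 CPM. Of 6 counted genes of the insulin-like growth factor system Igfbp4 was lower, at 1795 and 973 CPM. Of 10 other receptor tyrosine kinases Fgfr3 was higher, at 43.9 and 84.7 CPM, and Pdgfrb, Fgfr2 and Axl were lower.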

How the data were processed

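The authors deposited raw UMI counts per gene and barcode, with software version 3.1.0 per the file headers; Cell Ranger, GRCm38 and mm10 are named in the submitters' processing notes. The strand rule is not given in the sources used here. A cell was kept if it had 200 or more genes and no more than 10% of its UMIs from mitochondrial genes. Barcodes with more UMIs in another library were left out, as were the highest Scrublet scores (scanpy 1.11.5) at 0.8% per 1000 barcodes; Scrublet's own threshold marked 0 or 1 barcode per library. Free RNA was not corrected.

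Counts were summed and scaled to CPM. Intervals (95%) are exact Poisson for sums, Clopper-Pearson for shares and conditional binomial for ratios, and cover counting error only; a count of 0 allows up to 3 counts. Ratios of genes with at least 100 UMIs were read at 1.5-fold. Cells were thinned to 4000 UMIs (KLS) or 1000 (MSC) in 1 random draw; the share expected over all draws is hypergeometric. The ratio step was tested on simulated data. Alternatives covered the cell filter, doublets, scaling (edgeR 4.0.16 TMM factors), gates, thinning and the UMI minimum; cells of 8000 to 16000 UMIs, STAT5 KO cells without a Stat5 UMI and expected shares were chosen after seeing the data. Coordinates are of GENCODE M21 (GRCm38).

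The receptors, gene lists and markers were chosen with earlier results of these data known. All 7 receptors are described, with the 5 most similar genes of each receptor with at least 1000 UMIs. List genes are named where past 1.5-fold or where they pair with a receptor. Ptpn11, Sla2, Gab1, Irs2, Lyz2, Fcgr3, Itgam, Cx3cr1 and Cd68 were named after their values were seen. Python 3.11.15, numpy 2.4.6, scipy 1.17.1 and R 4.3.3 were used. The count and sum over the stem cell marker list are not reported here.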

Additional observations from a re-analysis of the deposited data

Results flagged for a closer look

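Igf1r was the 1 receptor of the 7 whose counting intervals lay above 0 in some gates and below 0 in another. Its log2 ratio of STAT5 KO to control was 0.56 in the megakaryocyte gate, 0.64 in the erythroid gate and 0.092 in the multipotent gate, and it was -0.18 in the granule gate. Each gate held 1 library per genotype, and the difference between gates was not tested. Igf1r was higher in STAT5 KO in the megakaryocyte gate with each set of cells tried, from 0.31 to 0.76, and lower in the granule gate with each, from -0.32 to -0.09.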

How the results depend on the processing

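No paired analysis was possible because each group had 1 library and replicate numbers pair nothing, and leaving out a replicate was not possible either. Over all kept KLS cells, Kit was at -0.19 with the stricter cell filter, -0.33 in cells of 8000 to 16000 UMIs and -0.19 with each STAT5 KO gate given its share in control. Flt3 was at -0.32 with the CPM of single cells averaged and -0.19 without STAT5 KO cells that hold a Stat5 UMI. Tek was at -0.95 without those cells and -0.39 with the weighting. Tie1 was at -0.83 in cells of 8000 to 16000 UMIs, -0.87 without cells that hold a Stat5 UMI and -0.41 with the weighting. Igf1r was at -0.18 in cells of 8000 to 16000 UMIs and -0.031 with the weighting, and Insr at -0.10 in cells of 8000 to 16000 UMIs, against 0.06 in all. Of the 63 alternative values for KLS cells, 62 kept their sign, but 50 lay within the counting interval and 13 outside it. All 21 for stromal cells lay within the counting interval, and 13 of these kept their sign. In the gates, 373 of 406 alternative values lay within the interval of the reported value, and 2 changed the sign of a value beyond counting error: Igf1r in the multipotent gate was at -0.026 in cells of 8000 to 16000 UMIs and -0.045 with gates on thinned UMIs. The cause was not tested. The number of genes past the fold was 870, 344, 492, 383, 249, 369, 491 and 568 for all KLS, stem triad, lymphoid, megakaryocyte, erythroid, granule, multipotent and stromal cells. With a fold of 2 it was 216, 54, 103, 42, 33, 58, 108 and 167 in that order, and with a minimum of 20 UMIs it was 1665, 1160, 1147, 1359, 1260, 1047, 1260 and 2329. Of 336 alternative shares of thinned cells, 241 lay within the interval of the reported share, among them the shares expected over all draws, and 3 of 10 lists of similar genes kept fewer than 4 of their 5 genes.

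Depth limits Csf1r and Tek, with 745 and 645 KLS UMIs, and most receptors in the erythroid gate, which held 39 control cells. MSC libraries were shallow. The counting intervals leave out differences between mice and preparations, which 1 library per group cannot show. Genotype and library cannot be told apart.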
